A study of Mus musculus with 20 samples.

Results

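Ribosome-bound RNA, drawn with a tag directed to tanycytes, was compared between 2 groups of mice. The mice called IRΔTan lacked the insulin receptor in tanycytes and were fed normal chow diet (NCD). Control mice had an intact receptor and were fed a high-fat diet (HFD). The comparison used 7 of the 20 libraries of the study, namely the immunoprecipitations of 3 IRΔTan pools and 4 HFD-fed control pools, and 13601 genes were tested. All mice carried 1 copy of a transgene at the Rosa26 locus that encodes the ribosomal protein L10 fused to EGFP and is switched on by Cre. At 12 weeks of age they received a virus in the lateral ventricle that carries Cre under the promoter of Dio2, a gene of tanycytes that other glia can also express, and 4 weeks later the mediobasal hypothalamus, with arcuate nucleus and median eminence, was dissected. IRΔTan mice carried 2 floxed alleles of Insr (IR fl/fl) and the controls 2 wild-type alleles (IR wt/wt). NCD gave 9% of calories from fat and HFD 60%, from about 4 weeks of age, and the series describes the HFD feeding as 8 weeks. The sample labels give the genotype of the controls as IRmKate2, which differs from the series description. Each library came from a pool of 5 to 7 mice of both sexes by that description, so a pool is a mixture of animals. Genotype and diet differ together between the 2 groups and cannot be told apart in this comparison. For that reason the levels of 3 pools of NCD-fed controls are given beside the results.

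Tanycytes are glia that line the floor of the third ventricle and send processes into the arcuate nucleus and to the vessels of the median eminence. They carry hormones such as leptin and insulin from the blood into the hypothalamus, take up glucose and convert thyroid hormone. The insulin receptor is a tyrosine kinase that acts through the insulin receptor substrates, phosphatidylinositol 3-kinase and AKT on mTOR and FOXO proteins, and so on protein synthesis, lipid synthesis and glucose use. In translating ribosome affinity purification (TRAP) tagged ribosomes are drawn from a lysate with an antibody and their RNA is read, next to the lysate's total RNA (input). The precipitated fraction is called pulldown here.

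Library totals were 36118000 to 48674000 counts in the IRΔTan pulldowns and 29469000 to 34715000 in the HFD pulldowns. Levels are given as CPM, the count relative to the size of its library, with library sizes adjusted by the trimmed mean of M values (TMM) over the 10 pulldowns. The share of a gene annotated to ribosomal RNA (CT010467.1) was 15.6 to 18.9% in IRΔTan pulldowns, 15.5 to 16.3% in those of NCD controls and 8.11 to 8.91% in those of HFD controls. In the inputs the order was reversed, with 1.39 to 2.08% in IRΔTan, 1.37 to 1.52% in NCD controls and 3.81 to 5.5% in HFD controls. The leading principal component of the 10 pulldowns held 45.1% of the variance and set all 4 HFD pools, at -64.5 to -15.4, apart from the 6 NCD-fed pools, at 14.3 to 40.1. HFD pool 2 lay farthest out. The label of the cells was checked against marker genes. Of 21 tanycyte markers tested, 17 were higher in the pulldown than in the input of NCD controls, and so were all 15 ependymal markers tested. The median difference was 2.87 on the log2 scale for tanycyte and 5.21 for ependymal markers. RNA of genes that mark ependymal cells was thus enriched as well, and by the median more strongly. The summed level of the tanycyte markers was 1733 to 2336 CPM in IRΔTan pulldowns and 891 to 1630.0 CPM in HFD pulldowns. Neuronal markers summed to 6028 to 6779 CPM and 9976 to 13190.0 CPM, so the pulldowns of both groups also held RNA of genes that mark neurons, and no defining marker of neurons was at 0 in all 7 pools. In bulk RNA fewer cells of a type and less RNA per cell cannot be told apart.

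The level of the deleted gene was low in each IRΔTan pool. Insr (chromosome 8, 3122061 to 3279617 on GRCm38, minus strand) was at 15.2, 11 and 17.0 CPM in the 3 IRΔTan pools and at 45.0, 53.7, 52.3 and 51.9 CPM in the 4 HFD pools. All IRΔTan pools lay below all HFD pools, with NCD controls at 42.1, 44.1 and 41.1 CPM (log2 fold change -1.81 ± 0.14 (SE), edgeR adjusted P = 0.000211). In input RNA the values were 43.1, 45.9 and 50.8 CPM against 48.2, 46.4, 45.6 and 52.8 CPM, and the input difference of -0.05 did not pass the test (edgeR adjusted P = 0.61). The pulldown difference minus the input difference was -1.75 on the log2 scale (edgeR adjusted P = 6.68e-05). Counts are per gene, so the deleted exon was not read separately.

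A large share of genes differed between the groups. Of the 13601 genes tested, 4863 passed an adjusted P of 0.05 (35.8%), 2171 being higher in IRΔTan (16.0%) and 2692 lower (19.8%). The median fold change of all genes was 0.0068 on the log2 scale, and the median size among the genes called was 0.63. A log2 fold change of at least 1 in size was reached by 705 of them (5.18%), 265 higher and 440 lower. The pools of the 2 groups did not overlap for 5886 genes (43.3%), of which 4503 were called. With library totals in place of TMM 34.6% of the calls were higher in IRΔTan, against 44.6%. Counts varied with single pools. Without IRΔTan pool 1 the test called 2965 genes, and among genes with a log2 fold change of at least 1 there were 416 without HFD pool 2 and 1078 without HFD pool 1.

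By the median, NCD controls stood nearer to IRΔTan than to HFD over the genes called. In the same fit 1 gene, Insr, passed the test between IRΔTan and NCD controls, and 5418 passed it between HFD and NCD controls. By DESeq2 the study instead reports a set of genes that differed from NCD controls in both groups. The comparison of IRΔTan with NCD controls was not repeated with other tools or settings. A gene that did not pass is not shown to be unchanged by the deletion. Among the 2171 genes higher in IRΔTan than in HFD, the median fold change against NCD controls was 0.01 for IRΔTan and -0.60 for HFD. The corresponding medians for the 2692 genes lower in IRΔTan were 0.00 and 0.65. The mean of the NCD controls lay between those of the other groups for 1172 of the genes higher and 1297 of the genes lower in IRΔTan. It lay beyond the IRΔTan mean for 992 and 1380, and beyond the HFD mean for 7 and 15. A mean between the others can lie near either group. The 2 comparisons with NCD controls share the NCD pools with each other, and the comparison of IRΔTan with HFD shares a group with each.

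**Figure D1:**
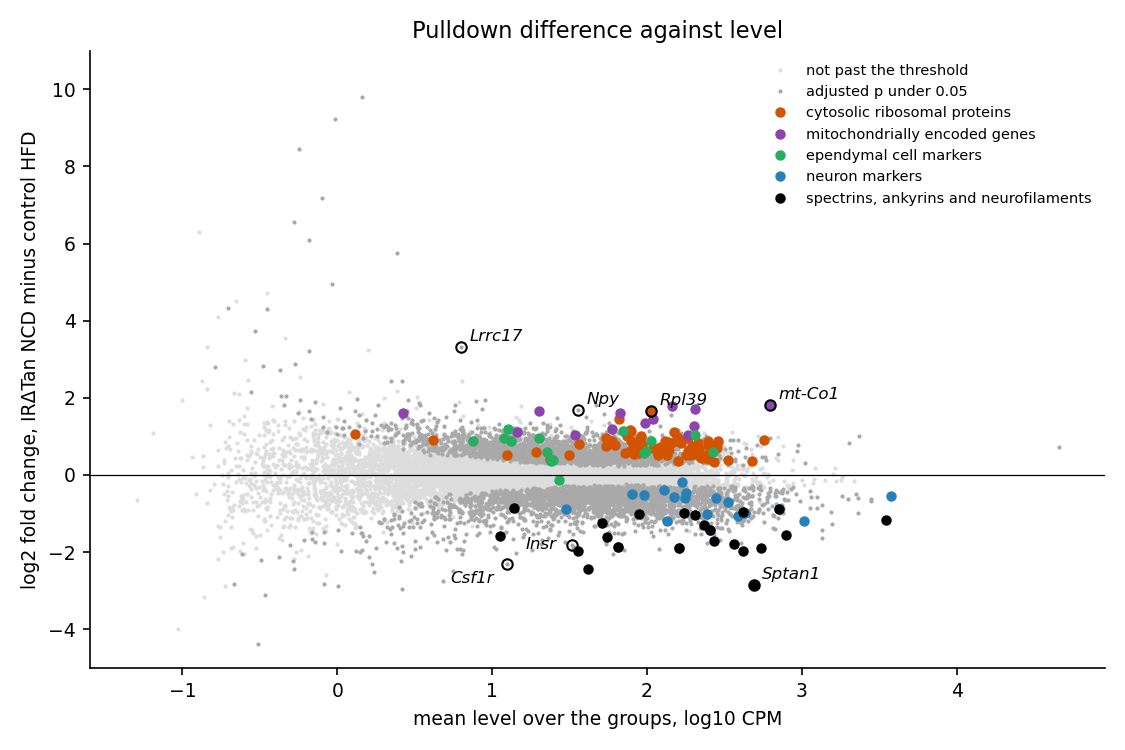
Log2 fold change in the pulldown of IRΔTan on NCD minus control on HFD (y axis) against the mean level of both groups in log10 CPM (x axis), 1 point per gene. Dark grey points passed an adjusted P of 0.05, and rings mark 7 named genes. Ribosomal protein genes, mitochondrially encoded genes and most ependymal markers lie above 0, and neuronal markers and the spectrin group lie below 0.

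Markers of cell types moved in both directions. Their counts are given beside 16.0% of all genes tested called higher and 19.8% called lower. All 20 neuronal markers had negative values and 19 fell in IRΔTan relative to HFD, with a median log2 fold change of -0.78. Gad1, which makes GABA, was at 81.0, 90.8 and 74.9 CPM in IRΔTan and 153, 236, 189.9 and 170.1 CPM in HFD pools. The groups did not overlap (log2 fold change -1.19 ± 0.14 (SE), edgeR adjusted P = 0.000587). Oligodendrocyte markers were lower for 12 of 14 (median -1.29), among them Cnp, an enzyme of myelin, at -1.13 (edgeR adjusted P = 0.00213), and Mag, a myelin adhesion protein, at -1.95 (edgeR adjusted P = 0.00175). Microglial markers were lower for 8 of 11 (median -1.30). Csf1r, the receptor microglia need to survive, was at 3.70, 3.45 and 5.34 CPM against 13.5, 29.7, 20.8 and 18.6 CPM, with every IRΔTan pool below every HFD pool (log2 fold change -2.31 ± 0.27 (SE), edgeR adjusted P = 0.000585). Of 8 markers of oligodendrocyte precursors 6 were lower, but 2 without IRΔTan pool 2 or without HFD pool 2. Precursor markers included Cspg4, the proteoglycan NG2, at -2.75, and 3 were lower without IRΔTan pool 3 or HFD pool 4. Of 14 astrocyte markers 2 were called, S1pr1, a lipid receptor, at 0.46 and Aldh1l1, a folate enzyme, at -1.27 (list median -0.09). The rise of S1pr1 was lost without IRΔTan pool 2 or 3, and 2 astrocyte markers were higher without HFD pool 1 or 3. Among 6 endothelial markers Flt1, a receptor of VEGF, was the only one called (1.23), a call lost without IRΔTan pool 1 or 2, HFD pool 1, 2 or 4, or NCD pool 1. None of 10 mural and fibroblast markers was called (median -0.50). Of 7 pituitary markers 2 were lower, among them Chga, a granin, at -0.85, and none was called without IRΔTan pool 1 or 2. Beside these values, the summed levels were 506 to 648 against 817 to 1976 CPM for oligodendrocytes and 36.8 to 42.3 against 97.4 to 122 CPM for microglia. No marker of these lists was at 0 in all 7 pools.

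Ependymal and tanycyte markers that were called mostly went the other way, where 16.0% of all genes tested were called higher. Of 15 ependymal markers 11 were higher in IRΔTan (median 0.88), and 4 without IRΔTan pool 1. Foxj1, the master regulator of motile cilia, was at 370.4, 217 and 238 CPM in IRΔTan and 186, 104, 105 and 141 CPM in HFD pools, with NCD controls at 229, 234 and 235 CPM. IRΔTan pool 1 was highest and the groups did not overlap (log2 fold change 1.04 ± 0.22 (SE), edgeR adjusted P = 0.00406). Of 21 tanycyte markers 7 were higher and 2 lower, with a median of 0.57, and 4 and 3 were higher without IRΔTan pool 1 and pool 3. Dio2, the deiodinase that activates thyroid hormone and the source of the viral promoter, was at 126, 89.6 and 198 CPM against 75.7, 50.4, 66.3 and 88.3 CPM. Its lowest IRΔTan value lay just above its highest HFD value (log2 fold change 0.98 ± 0.24 (SE), edgeR adjusted P = 0.00855), and Dio2 was also higher in the input (0.62, edgeR adjusted P = 0.00328). Frzb, a secreted Wnt antagonist, and Ppp1r1b, an inhibitor of protein phosphatase 1, rose by 0.93 and 1.12. In the input none of the ependymal markers was higher and 2 were lower, and 1 tanycyte marker was higher and 1 lower.

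Within insulin signalling, 6 of 22 members including the receptor were called, against 35.8% of all genes tested. Of 22 receptors, substrates and adaptors 5 were lower and 1 was higher in IRΔTan (median -0.21). Igf2r, the receptor that clears IGF2 and sorts lysosomal enzymes, was at 19.2, 22.9 and 20.8 CPM in IRΔTan and 35, 49.3, 53.4 and 44.4 CPM in HFD pools, without overlap (log2 fold change -1.12 ± 0.14 (SE), edgeR adjusted P = 0.000686). NCD controls, at 22.8, 23.6 and 20.8 CPM, overlapped the IRΔTan pools. Grb10, an adaptor that inhibits the receptor, was at 135, 142 and 139 against 178, 241, 231 and 202 CPM (log2 fold change -0.62 ± 0.11 (SE), edgeR adjusted P = 0.00228). Sos1, an activator of RAS, fell by 0.59, and Shc1, an adaptor, rose by 0.75. Irs4, a receptor substrate of the hypothalamus, was at 223, 214 and 216 CPM in IRΔTan, 211, 260.1, 295 and 249.5 CPM in HFD and 173, 153 and 144 CPM in NCD pools. IRΔTan and HFD pools overlapped and the test was not passed (log2 fold change -0.22 ± 0.12 (SE), edgeR adjusted P = 0.161). Of 32 genes of the PI3K, AKT, mTOR and FOXO pathway 13 were lower and 3 higher (median -0.09), and 8 were lower without IRΔTan pool 1. Mtor, the kinase of both mTOR complexes, was at 54.4, 61.1 and 53.1 CPM against 121, 208, 157 and 138 CPM, with HFD pool 2 highest and no overlap (log2 fold change -1.47 ± 0.16 (SE), edgeR adjusted P = 0.000585). Rptor and Rictor, which define mTOR complexes 1 and 2, fell by 0.61 and 0.86, and Akt2 rose by 0.67 (edgeR adjusted P = 0.00653). Of 8 IGF ligands and binding proteins, Igfbp2 and Igfbp4, which bind IGFs outside the cell, rose by 0.65 and 0.67, and 1 of them was called without any one of the IRΔTan pools, HFD pools 2 or 3, or NCD pool 3.

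Chaperones were called in both directions, beside 16.0% of all genes tested called higher and 19.8% called lower. Of 40 cytosolic heat shock proteins and cochaperones 15 fell and 9 rose in IRΔTan relative to HFD, and the median was -0.01. The count of those that fell was 6 without IRΔTan pool 1, 8 without HFD pool 2 and 7 without HFD pool 3. Hsp90aa1, the inducible HSP90, was at 1540.3, 1416 and 1490.2 CPM in IRΔTan pools and 1907, 2409, 2287 and 2001 CPM in HFD pools. The 2 groups did not overlap, and both lay above the NCD controls, which were at 1179.7, 1055 and 1239.6 CPM (log2 fold change -0.54 ± 0.11 (SE), edgeR adjusted P = 0.00324). Hsph1, a nucleotide exchange factor of HSP70, was at 618, 619 and 655 against 755, 907, 929 and 797 CPM, with NCD controls at 501, 522 and 504 CPM (log2 fold change -0.42 ± 0.10 (SE), edgeR adjusted P = 0.00679). Dnaja1, an HSP40 that delivers clients to HSP70, was at 677, 755 and 811 against 855, 1031, 1075 and 877 CPM, again above NCD controls at 574, 625 and 581 CPM (log2 fold change -0.36 ± 0.11 (SE), edgeR adjusted P = 0.0257). Its call was lost without IRΔTan pool 1 or 2, without HFD pool 2 or 3 and with the trend in gene length removed. Relative to NCD controls the fitted values of Hsp90aa1 were 0.36 for IRΔTan and 0.89 for HFD. Those of Hsph1 were 0.31 and 0.73, and those of Dnaja1 0.33 and 0.69. For none of the 3 did IRΔTan differ from NCD controls by the test used here. The study, by DESeq2, reports all 3 as higher than in NCD controls in both groups. Within the HSP70 family Hspa8 and Hspa4 fell by 0.69 and 0.88, and Hspa1b, an inducible member chosen after its values were seen, rose by 1.33 (edgeR adjusted P = 0.026). Its near-identical copy Hspa1a, with which it can share reads, was at 0.55 without a call (edgeR adjusted P = 0.229), and leaving out single pools was not run for either. The chaperonin that folds actin and tubulin was represented by 7 genes, chosen after their values were seen, and Cct2, Cct3, Cct5, Cct7, Cct8 and Tcp1 fell by 0.32 to 0.66 while Cct4 was at -0.12. The members that rose included Dnaja4, an HSP40, at 99.6, 71.1 and 88.7 against 56.8, 42.7, 38.0 and 55.8 CPM (log2 fold change 0.84 ± 0.15 (SE), edgeR adjusted P = 0.00226), and Dnajb2 at 0.49 (edgeR adjusted P = 0.0016). Mitochondrial Hspd1, the HSP60, was at 265, 273 and 282 against 271, 372, 360.1 and 298 CPM, with overlap and no call (log2 fold change -0.25 ± 0.12 (SE), edgeR adjusted P = 0.118). Of the other genes the study names, the import subunit Timm50 and the neuropeptide receptors Nmur2 and Nmbr did not pass the test, at 0.17, 0.70 and 0.01. The study names 9 genes from these libraries, of which 4 were called, all lower. It chose them on the same libraries, so that count is not independent evidence of a direction.

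Heat shock genes carry a binding element of the factor HSF1 in their promoters, whose core is GAANNTTC, a sequence that reads the same on both strands. RefSeq windows of GRCm38.p6 from 250 bases before to 50 after a start were found for 34 of the 40 genes, of which 13 (38.2%) held the element, against 6.9% of 10671 tested genes with a window. Of 12 with a window that fell 3 held it (25.0%), and of 8 that rose 4 did (50.0%). Members of both directions held the element, and 60 bases are printed from 2 promoters of each, with the element in capitals. They are Hspb1 and Dnaja4, which rose by 1.20 and 0.84, and Dnaja1 and Cct2, which fell by 0.36 and 0.32. Hspb1 and Cct2 were chosen after their values were seen.
Hspb1 (chr5:135887794-135887853, plus strand): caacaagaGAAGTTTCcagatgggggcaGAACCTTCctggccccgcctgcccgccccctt
Dnaja4 (chr9:54699459-54699518, plus strand): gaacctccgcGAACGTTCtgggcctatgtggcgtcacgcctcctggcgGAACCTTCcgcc
Dnaja1 (chr4:40722328-40722387, plus strand): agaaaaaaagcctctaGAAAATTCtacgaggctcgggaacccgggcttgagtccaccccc
Cct2 (chr10:117063388-117063447, minus strand): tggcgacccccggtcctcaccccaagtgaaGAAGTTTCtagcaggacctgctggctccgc

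**Figure D2:**
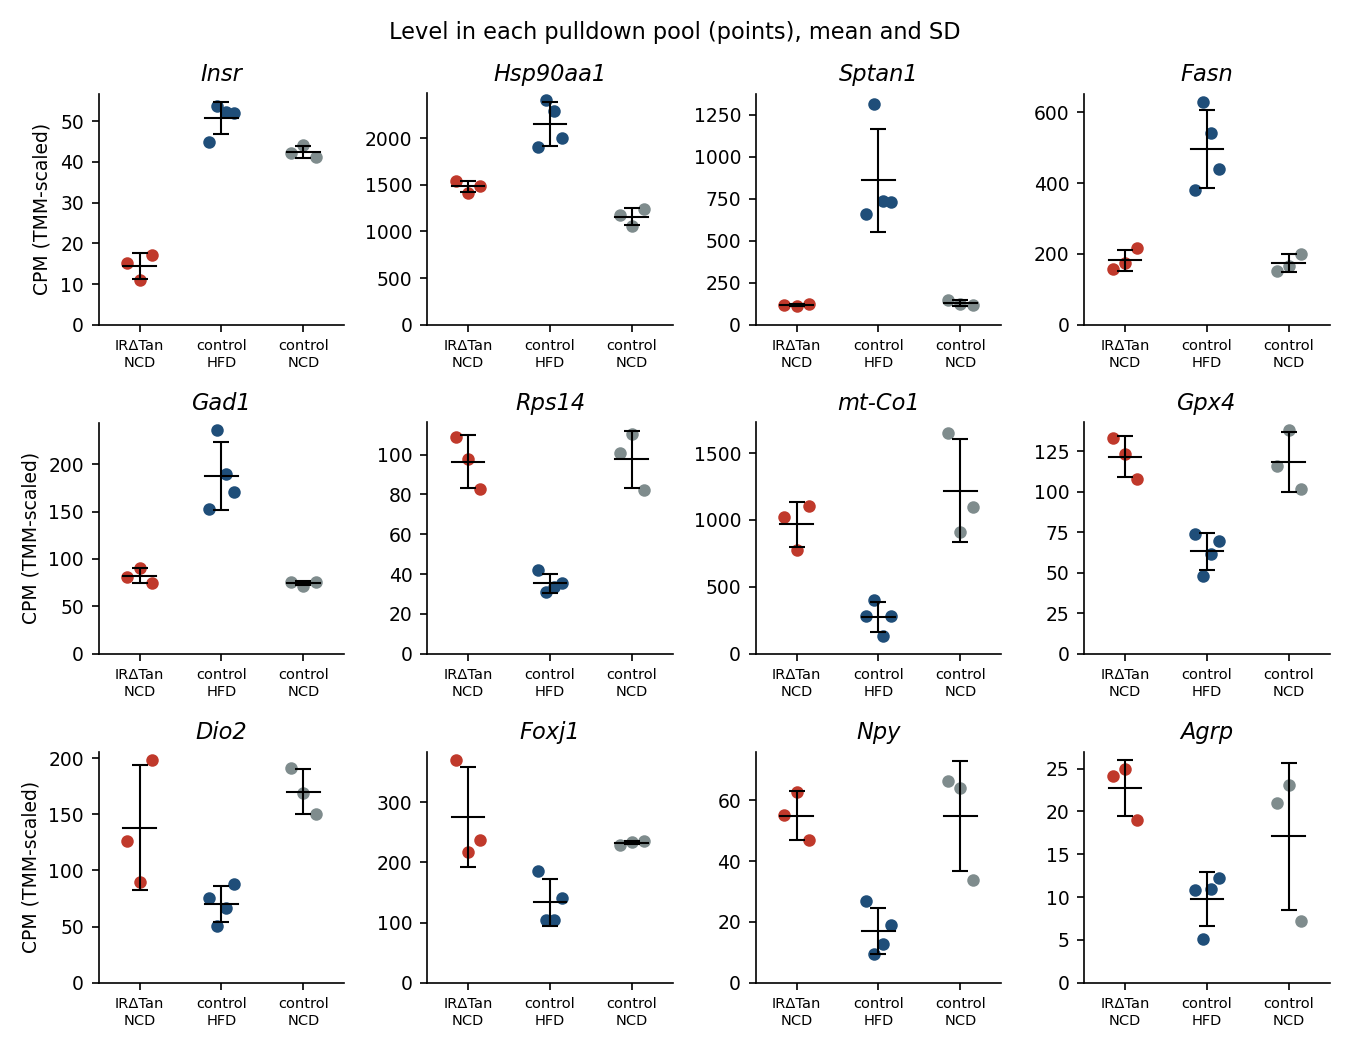
Level of 12 genes in each pulldown pool in CPM (y axes, from 0), with 3 IRΔTan pools (red), 4 HFD control pools (blue) and 3 NCD control pools (grey). Bars give the mean and SD. Insr is low in IRΔTan alone, Hsp90aa1 is highest in HFD, and for Sptan1, Fasn, Gad1, Rps14, mt-Co1, Gpx4 and Npy the IRΔTan pools lie near the NCD pools and apart from the HFD pools.

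Genes of the cytosolic ribosome rose together. Of 79 ribosomal protein genes 76 were higher in IRΔTan than in HFD and none was lower, with a median of 0.72 and a range of 0.33 to 1.66. All 79 had positive values. Rps14, of the small subunit, was at 109, 97.6 and 82.8 CPM in IRΔTan and 41.9, 30.8, 33.4 and 35.6 CPM in HFD pools, and NCD controls were at 101, 110.3 and 82.0 CPM. HFD pools lay below all others (log2 fold change 1.44 ± 0.14 (SE), edgeR adjusted P = 0.000585). Rpl39, of the large subunit, was at 162, 178 and 143 against 65.3, 31.0, 52.5 and 54.7 CPM (log2 fold change 1.66 ± 0.20 (SE), edgeR adjusted P = 0.000587), and again no HFD pool reached the level of an IRΔTan pool. In the input the group went the other way, with 65 of 79 lower and 1 higher in IRΔTan (median -0.46). Rps14 in the input was at 24.7, 19.1 and 23.0 against 30.5, 35.6, 34.3 and 30.5 CPM, and its difference between fractions was 2.01 (edgeR adjusted P = 4.1e-05). With the trend in gene length removed from each library 54 of 79 were called higher and the median was 0.43. Near-identical pseudogene copies can share reads with ribosomal protein genes, which makes the level of single members uncertain. The share of the ribosomal RNA entry, given above, also differed between the pulldowns and, in the opposite direction, between the inputs. Its part in these values was not tested.

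Many ribosomal protein transcripts start with a C followed by a run of pyrimidines, the 5′ terminal oligopyrimidine tract through which mTOR controls their translation. A C followed by at least 5 bases that are C or T, within 5 bases of a start annotated by RefSeq, was found for 26 of 58 ribosomal protein genes with a window (44.8%), against 12.9% of all tested genes with one. The search ran on the coding strand alone. The 30 bases around the start are printed for the 4 genes with the longest tracts, in capitals. They are also printed for Rpl39, the member with the largest difference, which held no tract within the searched distance. A C followed by a run of C and T stands in its printed bases just past that distance.
Rpl27a (chr7:109519180-109519209, plus strand): gacttcgtgagCTCCTCCCTTTTCCCTTTC
Rpl15 (chr14:18270972-18271001, minus strand): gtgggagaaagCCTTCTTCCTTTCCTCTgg
Fau (chr19:6057932-6057961, plus strand): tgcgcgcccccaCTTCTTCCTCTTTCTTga
Rpl35 (chr2:39005117-39005146, minus strand): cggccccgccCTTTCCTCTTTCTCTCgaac
Rpl39 (chrX:37085208-37085237, minus strand): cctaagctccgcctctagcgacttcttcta
Fau and Rpl15 rose by 0.52 and 0.44 and Rpl27a and Rpl35 by 0.75 and 0.96. Rpl39, whose run of pyrimidines begins just past the searched distance, rose by 1.66.

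Mitochondrial genes divided by where they are encoded. Among all genes tested 16.0% were called higher and 19.8% lower, and some of the counts below are near these shares. All 13 genes of the mitochondrial genome tested rose in IRΔTan relative to HFD (median 1.46). mt-Co1, a subunit of cytochrome c oxidase, was at 1023, 773 and 1102 CPM in IRΔTan, 282, 399.8, 133 and 283 CPM in HFD and 1652, 909 and 1098 CPM in NCD pools. The highest HFD value was well below the lowest of the other pools (log2 fold change 1.81 ± 0.30 (SE), edgeR adjusted P = 0.00147). Mitochondrial transcripts are made inside the organelle and are not read by tagged cytosolic ribosomes. Their levels in the pulldown were far below those in the input, with a median pulldown against input difference of -4.26 in IRΔTan, -5.92 in HFD and -4.04 in NCD controls. With the length trend removed 6 of 13 were called, with a median of 0.80. Among 44 respiratory chain subunits encoded in the nucleus 18 were higher and 10 lower (median 0.17). Ndufa1, a short accessory subunit of complex I, was at 81.2, 85.6 and 65.8 against 53.1, 37.1, 45.1 and 48.7 CPM (log2 fold change 0.75 ± 0.13 (SE), edgeR adjusted P = 0.00174), a call lost with the length trend removed. Ndufs1, the largest subunit of that complex, was at 47.2, 51.6 and 51.7 against 80.7, 143, 117 and 104 CPM, with no overlap and in the other direction (log2 fold change -1.15 ± 0.18 (SE), edgeR adjusted P = 0.00116). Without IRΔTan pool 2, 9 subunits were higher, and with the length trend removed 6 were and the median was -0.13. Of 38 genes of import, chaperones and proteases 13 were higher and 6 lower, and 7 were higher without IRΔTan pool 1 and 6 with the length trend removed. Of 17 genes of fusion, fission and mitophagy 2 were higher and 6 lower. Fis1, an adaptor of fission, rose by 0.70, and Opa1, the GTPase that fuses inner membranes, fell by 0.79.

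Enzymes of glycolysis and of lipid synthesis that were called were mostly lower in IRΔTan than in HFD. The share of all genes tested was 19.8% lower and 16.0% higher. Of 18 glycolytic genes 13 fell and none rose (median -0.63). Pkm, pyruvate kinase, was at 367, 409 and 357 CPM in IRΔTan and 615, 897, 781 and 687 CPM in HFD pools, with NCD controls at 310.2, 345 and 371 CPM (log2 fold change -0.98 ± 0.13 (SE), edgeR adjusted P = 0.000737). Pfkp, a phosphofructokinase, was at -1.20 (edgeR adjusted P = 0.000739). Fatty acid synthesis had 5 of 13 genes lower and 1 higher. Fasn, fatty acid synthase, was at 158, 174 and 216 against 380.0, 629, 540.1 and 440.1 CPM, and NCD controls were at 151, 167 and 201 CPM. IRΔTan and NCD pools lay together, below all HFD pools (log2 fold change -1.45 ± 0.18 (SE), edgeR adjusted P = 0.000634). Acly, Acaca and Acss2, which make and use acetyl-CoA for this synthesis, fell by 1.05, 0.83 and 0.94, while Thrsp, a regulator of lipid synthesis, rose by 0.96 (edgeR adjusted P = 0.00696). Of 23 genes of cholesterol synthesis and uptake 7 were lower (median -0.25), and 3 without IRΔTan pool 1 or HFD pool 3. Fatty acid uptake, oxidation and ketone genes split into 7 higher and 10 lower of 35. Among 28 lysosomal genes 12 were lower, with Atp6v1a, a catalytic subunit of the proton pump, at 413, 408 and 517 against 708, 1282, 1021 and 849 CPM (log2 fold change -1.11 ± 0.18 (SE), edgeR adjusted P = 0.00147). Several of these enzymes are also abundant in neurons, and neuronal markers, given above, moved in the same direction. Their part in these differences was not tested. In the input the median was 0.02 for glycolysis, 0.15 for fatty acid synthesis and 0.06 for cholesterol.

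By the list median the membrane skeleton held the largest fall in the main fit, and synaptic genes fell with it. All 22 spectrins, ankyrins, neurofilaments and related genes were lower in IRΔTan (median -1.57), and all 22 were also called lower whichever pool was left out. With the length trend removed 18 were called and the median was -1.1, smaller in size than for microglial (-1.74) and oligodendrocyte (-1.41) markers. The list shares members with the neuronal markers, for example Map2, so the falls of these lists are not separate. Sptan1, the alpha spectrin of non-erythroid cells, was at 120.4, 109.7 and 125 CPM in IRΔTan, 148, 121 and 117 CPM in NCD and 660.5, 1315, 735 and 729 CPM in HFD pools. HFD pool 2 stood above the other HFD pools, which still lay far above all IRΔTan pools (log2 fold change -2.86 ± 0.23 (SE), edgeR adjusted P = 0.000211). In the input Sptan1 was at 335, 369.8 and 327 against 300.4, 324, 328 and 327 CPM (0.11, edgeR adjusted P = 0.126). Nefm, a neurofilament subunit, was at 54.9, 70.5 and 81.5 against 187, 352, 246 and 234 CPM (log2 fold change -1.88 ± 0.21 (SE), edgeR adjusted P = 0.000585). Of 23 synaptic vesicle genes 21 were lower (median -0.75), for example Bsn, a scaffold of the active zone, at -1.69 (edgeR adjusted P = 0.000693). Receptors of GABA and glutamate were lower for 18 of 20, and voltage-gated and potassium channels for 19 of 24, or 11 with the length trend removed. In the input 7 of the synaptic vesicle genes, 1 of the receptors, 1 of the channels and 2 of the spectrin group were lower, and 4, 5, 7 and 5 were higher.

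Neuropeptide genes were called less uniformly. Their counts stand beside 16.0% of all genes tested called higher and 19.8% called lower. Of 13 arcuate neuropeptide genes 3 rose and none fell (median -0.05). In NCD controls 7 of them were higher and 3 lower in the pulldown than in the input by the test, Npy being higher by 3.69. Npy, which drives feeding, was at 55.2, 62.7 and 46.9 CPM in IRΔTan, 26.8, 9.61, 12.9 and 19.1 CPM in HFD and 66.4, 63.9 and 33.9 CPM in NCD pools. The lowest IRΔTan value exceeded the highest HFD value (log2 fold change 1.69 ± 0.31 (SE), edgeR adjusted P = 0.00225). Agrp, made by the same neurons, was at 24.2, 25.0 and 19.0 against 10.8, 5.13, 10.9 and 12.3 CPM, with 1 NCD pool as low as the HFD pools (20.9, 23.1 and 7.25 CPM; log2 fold change 1.22 ± 0.35 (SE), edgeR adjusted P = 0.0193). Its call was lost without IRΔTan pool 1 or 2 and with the length trend removed. Ghrh, which releases growth hormone, was at 31.1, 19.8 and 24.9 CPM in IRΔTan and 11.9, 6.18, 11.2 and 10.6 CPM in HFD pools (log2 fold change 1.35 ± 0.26 (SE), edgeR adjusted P = 0.00303). NCD controls, at 15.7, 7.61 and 11.1 CPM, overlapped the HFD pools, and the fitted value of IRΔTan against NCD was 1.14. In the input the differences were 0.01 for Npy, 0.37 for Agrp and 0.00 for Ghrh, and none passed the test. Of 13 neuropeptide and granin genes of other nuclei 3 were lower, namely Chgb, Scg2 and Hcrt at -0.89, -0.84 and -1.03, and 5 without HFD pool 2.

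Lists of tanycyte functions are given beside the 35.8% of all genes called. Of 19 transcription factors of tanycytes and radial glia 5 rose (median 0.33), and the count ran from 2 without IRΔTan pool 1 or 3 to 10 without IRΔTan pool 2 or HFD pool 1. Lhx2, which keeps tanycyte identity, was at 101, 73.2 and 107 against 75.2, 46.0, 47.5 and 71.9 CPM with overlap (log2 fold change 0.64 ± 0.18 (SE), edgeR adjusted P = 0.0188), a call lost without IRΔTan pool 1 or 3. Hes1, Hey1 and Hey2, targets of Notch, rose by 0.51, 0.32 and 0.78, the ligand Jag2 was at -0.96, and the Notch pathway as a whole had 3 of 17 higher and 1 lower. Of 15 genes of thyroid hormone handling 3 rose and 2 fell, and 1 rose without IRΔTan pool 1 or 3. Besides Dio2 they included Crym, which binds the hormone, and Tshr, the thyrotropin receptor, at 1.14 and 0.78, and the coactivator Ncoa1 at -0.56. The call of Crym was lost without any one IRΔTan pool or HFD pool 4, and that of Tshr without IRΔTan pool 1 or 3 or HFD pool 2 or 3. Among 11 genes of glucose and lactate transport Abcc8, of the sulfonylurea receptor, was the only one called, at -1.63 (edgeR adjusted P = 0.000925). Slc2a1, the glucose transporter GLUT1, was at 73.6, 82.3 and 62.6 against 52.2, 46.5, 63.6 and 63.5 CPM, with overlap and no call (log2 fold change 0.37 ± 0.14 (SE), edgeR adjusted P = 0.0553). Of 14 receptors of hormones and transcytosis 5 fell. They included Cltc (clathrin heavy chain), Lrp1 (a lipoprotein receptor), Tfrc (the transferrin receptor) and Egfr at -1.13, -1.12, -0.79 and -0.97. The call of Egfr was lost without any pool of the 2 groups other than HFD pool 1. Tight and adherens junction genes had 2 of 16 lower, Ctnnb1 (beta-catenin) and Cgn (cingulin), and none without IRΔTan pool 1 and 1 without IRΔTan pool 3 or HFD pool 4. Motile cilium genes were higher for 11 of 24 and lower for 1, and 6 were higher without IRΔTan pool 1.

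Redox genes that were called mostly rose, and 1 interferon gene was called. The lists of this paragraph are given beside the 35.8% of all genes called, 16.0% higher and 19.8% lower. Of 35 glutathione, peroxiredoxin and thioredoxin genes 12 rose and 1 fell (median 0.24). Gpx4, which reduces lipid peroxides, was at 133, 123 and 108 CPM in IRΔTan and 74.1, 48.0, 61.6 and 69.7 CPM in HFD pools (log2 fold change 0.94 ± 0.15 (SE), edgeR adjusted P = 0.00133). Gpx1 was at 0.95 (edgeR adjusted P = 0.00324). Interferon and MHC class I genes had a median of 0.53, but 1 of 33 was called, Psmb9, of the immunoproteasome. Its values were 158, 190.0 and 155 CPM in IRΔTan and 119, 30.3, 111 and 63.5 CPM in HFD pools, with HFD pool 2 lowest (log2 fold change 1.05 ± 0.35 (SE), edgeR adjusted P = 0.0346), and the call was lost without any one IRΔTan pool or HFD pool 4. Isg15, a ubiquitin-like protein induced by interferon, was at 209, 263 and 127 against 121, 16.0, 173 and 57.5 CPM, with overlap and no call. The summed level of this list was 1709 to 7604 CPM over the HFD pools, and 5706 to 9153 CPM over the IRΔTan pools, and 4 of its genes were called without HFD pool 1 or 3. ER stress genes had 6 higher and 6 lower of 32, and 3, 2, 3 and 3 were higher without IRΔTan pool 1, IRΔTan pool 2, HFD pool 2 and HFD pool 4. Hspa5 (BiP) and Asns (asparagine synthetase) were at -0.73 and -1.06 and Xbp1 and Ddit3, transcription factors of this response, at 0.76 and 0.65. Of 15 polyamine genes 4 rose and 1 fell. Oaz1, the antizyme of ornithine decarboxylase, was at 485, 456 and 453 against 280.0, 234, 243 and 241 CPM (log2 fold change 0.90 ± 0.10 (SE), edgeR adjusted P = 0.000585), and Sat1, which acetylates polyamines, was at 1.25 (edgeR adjusted P = 0.0056).

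The remaining lists are given by their counts, beside the 35.8% of all genes called. Of 27 proteasome subunits 5 rose, all of the core particle, and 3 of the regulatory particle fell (median 0.05), and 3 rose without IRΔTan pool 1. Clock genes were lower for 6 and higher for 3 of 19, and 3 were lower without IRΔTan pool 2, HFD pool 2 or HFD pool 4. Dbp, a target of the clock, was at -0.73 and Nfil3, which represses the same promoters, at 0.86. Of 21 immediate early genes Klf4 was at 0.83 and Nr4a2 at -0.99, both transcription factors, and the count that rose ran from 0 to 6 as single pools were left out, with 6 without HFD pool 1 (list median 0.44). Of 21 p53 targets and DNA damage kinases 5 rose and 3 fell, with 2 rising without IRΔTan pool 2, 3 without HFD pool 2, 3 or 4, and 8 without HFD pool 1. Chek2, a checkpoint kinase, was at 31.5, 21.1 and 22.0 CPM in IRΔTan and 14.4, 12.8, 7.94 and 13.0 CPM in HFD pools and differed by a like amount in the input (1.05 in the pulldown, 1.19 in the input). Collagen, laminin and matrix genes were lower for 6 of 23 and higher for 1, and calcium store genes lower for 6 of 15 and higher for 1. MHC class II genes had 2 of 10 lower, H2-Oa and the protease Ctss, and 1 without IRΔTan pool 1 or 2 or HFD pool 2 or 4. None of 4 Y-linked genes was called in the pulldown (median 0.03), while 3 were higher in the input of IRΔTan.

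**Figure D3:**
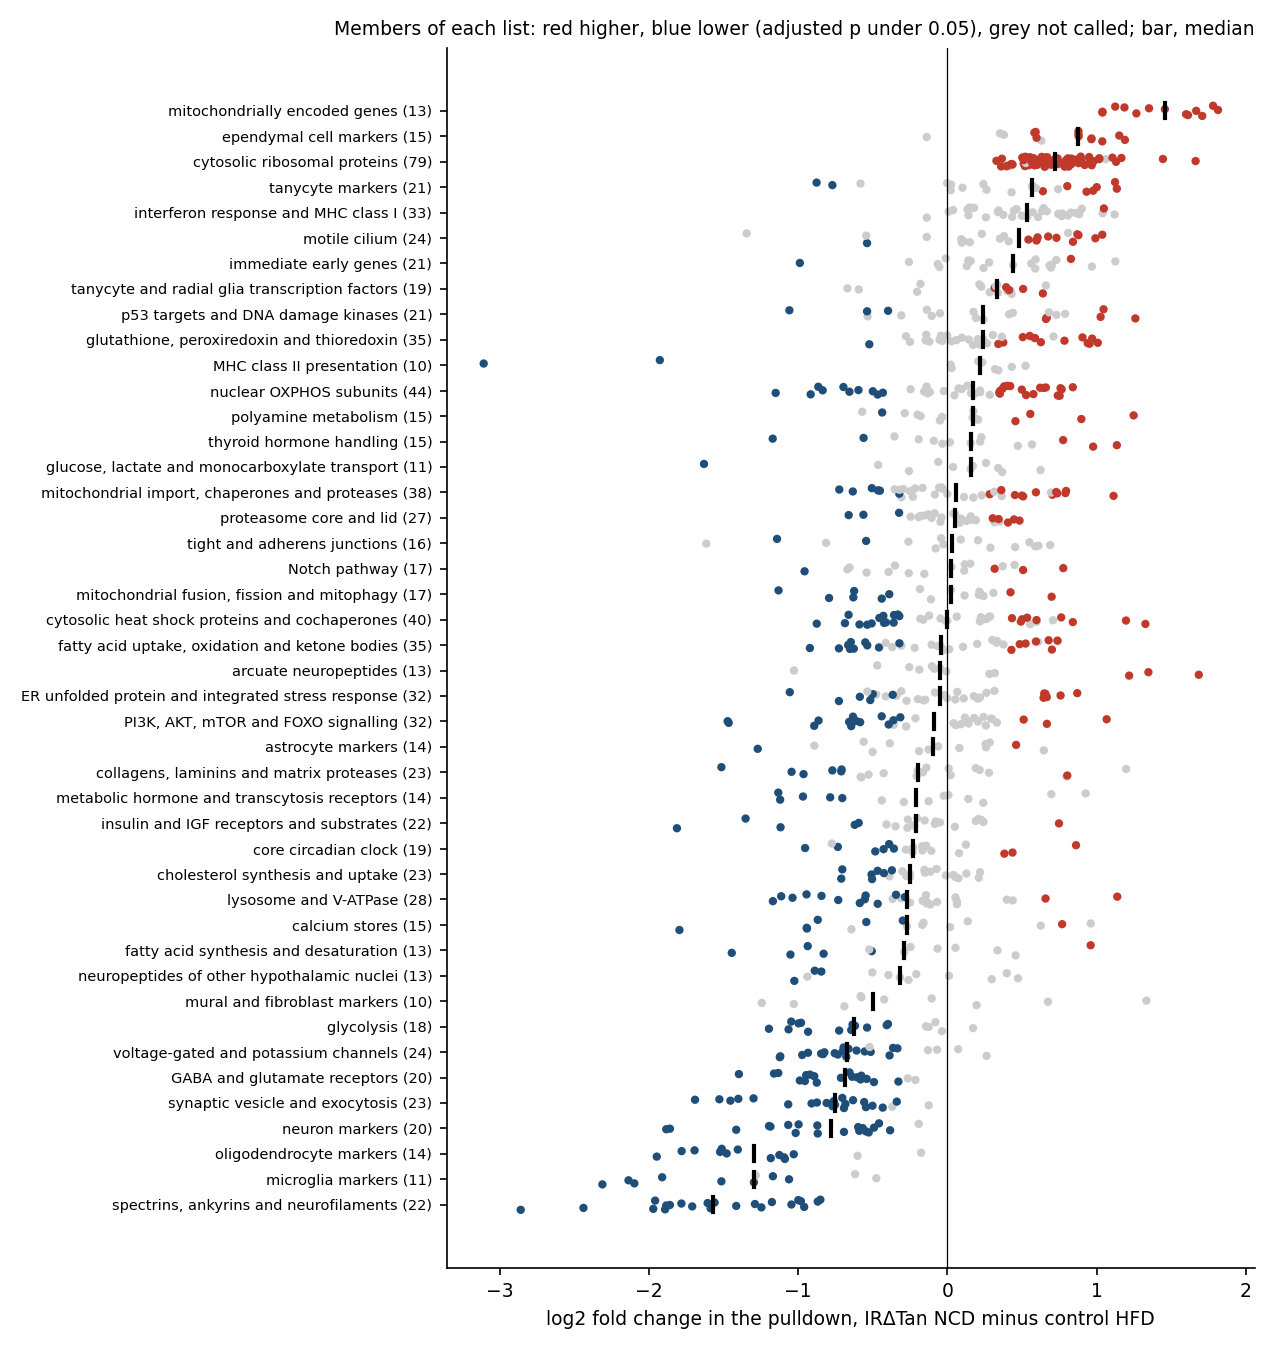
Log2 fold change in the pulldown of IRΔTan on NCD minus control on HFD (x axis) for each tested member of the lists with at least 10 tested genes (rows, number tested in parentheses). Red and blue points passed an adjusted P of 0.05, grey points did not, and black bars are medians. All mitochondrially encoded and ribosomal protein genes lie above 0, and all spectrin, oligodendrocyte, microglial and neuronal genes lie below 0.

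Among single genes with at least 10 CPM in the higher group, a call and no overlap, the largest rise was in Lrrc17, a secreted leucine-rich repeat protein. It was at 15.6, 11.2 and 7.63 CPM in IRΔTan, 21.5, 10.2 and 5.87 CPM in NCD and 1.94, 1.35, 0.755 and 0.526 CPM in HFD pools (log2 fold change 3.32 ± 0.48 (SE), edgeR adjusted P = 0.000891). Its input difference was 0.10 (edgeR adjusted P = 0.566). Nupr1, a stress-induced chromatin protein, and S100a10, a partner of annexin A2, were also among the 12 genes with the largest rises, at 1.96 and 1.80. Gm15446, a predicted gene, was at 12.9, 11.6 and 12.6 against 4.15, 2.05, 2.72 and 4.14 CPM, and its input difference was as large (1.92 in the pulldown, 1.85 in the input). The other genes of the 12 with the largest rises were Npy, Rpl39, Gm2000 and 5 mitochondrially encoded genes. Nupr1 and S100a10 were not called in the input, while Gm15446 was. After Sptan1 the largest falls were in Sptb, another spectrin, in Csf1r and in Mki67, a marker of dividing cells, at -2.44, -2.31 and -2.06. Mki67 was at 1.57, 1.96 and 3.93 against 11.5, 10.3, 13.6 and 5.85 CPM. The others included Mapk8ip2, Nexn, Dync1h1, Nectin4, Mag, Pakap and Ctss at -2.05 to -1.93. The call of Nectin4 was lost without IRΔTan pool 1. All 3 NCD pools lay outside the range of the 7 pools for 98 genes higher and 191 lower in IRΔTan. With the smallest P these were Add2, an adducin of the membrane skeleton, Baiap3, a factor of vesicle release, and Pnmal2, all lowest in NCD controls, and Rpl9, Golga7 and Fopnl, all highest in them.

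In the input the same groups differed at 3838 of 13478 genes (28.5%), 1825 higher and 2013 lower in IRΔTan. The difference between the 2 fractions was tested by an interaction over the 14 libraries of both groups, and 5342 of 13611 genes passed it (39.2%). Their pulldown difference was the higher for 2421 and the lower for 2921. For Hsp90aa1 the input went the opposite way, at 1248, 1293 and 1183 CPM in IRΔTan and 998, 957, 988 and 962 CPM in HFD pools. Every IRΔTan input lay above every HFD input (0.35, edgeR adjusted P = 0.000538), and the fractions differed by -0.88 (edgeR adjusted P = 0.000278). Hsph1 and Dnaja1 were likewise higher in IRΔTan inputs, by 0.17 and 0.21. Input levels were scaled apart from the pulldown and are not comparable with it. Ribosomal protein genes were called for the interaction in 76 of 79 cases, mitochondrially encoded genes in 13 of 13 and the spectrin group in 22 of 22. Microglial markers were lower in both fractions, with 5 of 11 called lower in the input (median -0.28), for example C1qa, a complement component, at -1.19 (edgeR adjusted P = 6.46e-05).

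**Figure D4:**
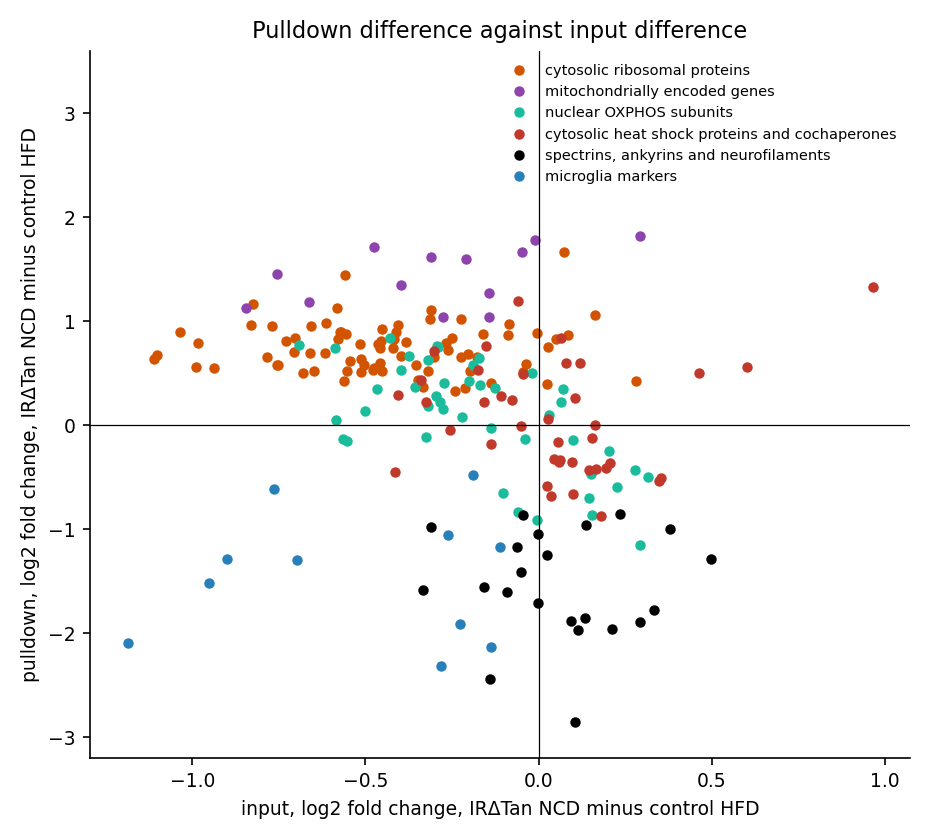
Log2 fold change of IRΔTan on NCD minus control on HFD in the pulldown (y axis) against that in the input (x axis) for the members of 6 lists, 1 point per gene. Ribosomal protein genes lie mostly in the upper left, higher in the pulldown and lower in the input, the spectrin group lies below 0 in the pulldown and on both sides of 0 in the input, and microglial markers lie at the lower left.

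The direction of a gene went with its standing in NCD controls, whose pools take no part in the contrast. In these controls 4656 of 13549 genes were higher in the pulldown than in the input (34.4%) and 4221 lower (31.2%). Among 4654 such enriched genes tested, 1767 were higher in IRΔTan than in HFD (38.0%) and 100 lower, with a median of 0.40. Among 4199 depleted genes 89 were higher and 2004 lower (47.7%), with a median of -0.41. The 4652 genes that were neither had 302 higher and 588 lower. In the input the medians of enriched and depleted genes had the opposite signs, -0.11 and 0.08. With library totals in place of TMM, 74.3% of the genes called in NCD controls were enriched, against 52.5%, as the median of all genes shifted from 0.03 to 0.38. Pulldown against input differences in IRΔTan, HFD and NCD pools had medians of 3.00, 2.31 and 2.87 for tanycyte markers, 5.22, 4.25 and 5.21 for ependymal markers and -0.90, -0.29 and -1.03 for neuronal markers. The pulldowns of HFD controls thus stood nearer to their inputs for each of these lists.

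Gene length, taken as the bases covered by annotated exons, moved with the difference as well. With the genes cut into 5 bins of length, the shortest bin (median 1710 bases) had 811 of 2721 genes higher and 96 lower in IRΔTan, and the longest bin (median 9824 bases) had 151 of 2720 higher and 1152 lower. The median fold change went from 0.36 through 0.13, 0.01 and -0.11 to -0.29 over the bins. Among enriched genes it went from 0.55 to 0.21, and among depleted genes from -0.25 to -0.50. The input went from -0.16 to 0.09 in the opposite order. With a trend in length removed from each library 4292 genes were called, 2133 higher and 2159 lower, of which 3410 were among the 4863. Depth, the share of the ribosomal RNA entry and the levels of neuronal, oligodendrocyte and microglial markers all differed between the same groups, and their part in the differences of single genes was not tested.

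**Figure D5:**
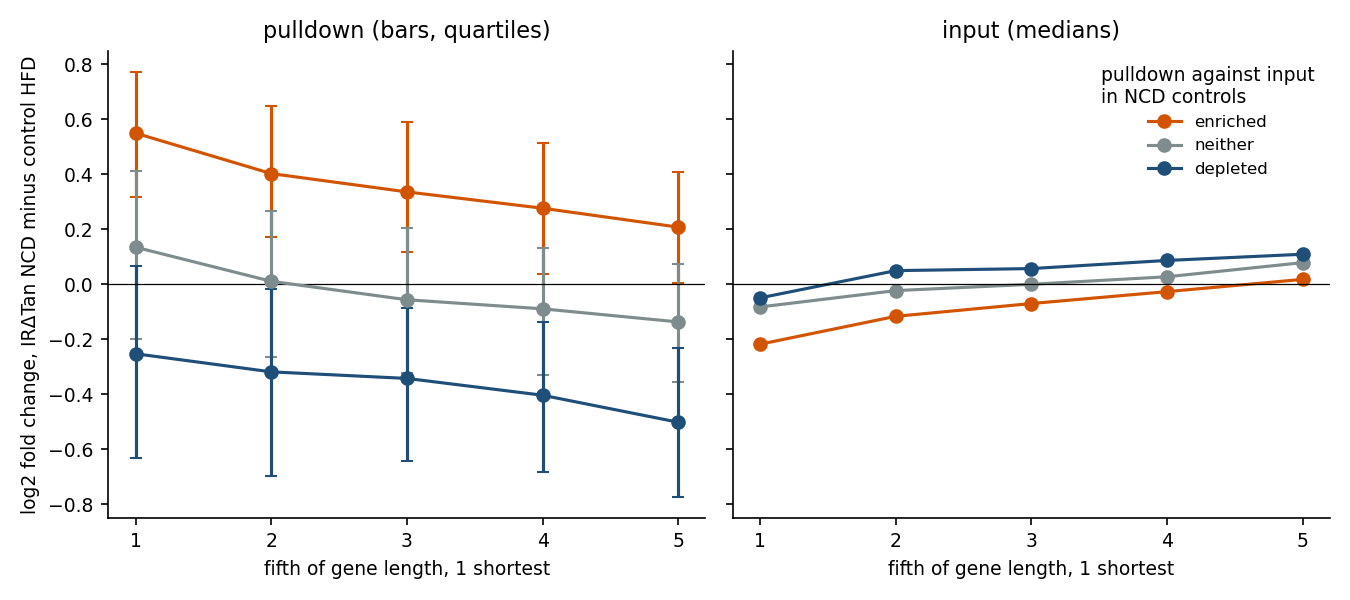
Median log2 fold change of IRΔTan on NCD minus control on HFD (y axis) in 5 bins of gene length from shortest to longest (x axis), for genes enriched in, depleted from or neither in the pulldown of NCD controls. Left, pulldown with quartiles as bars. Right, input. In the pulldown enriched genes lie above 0 and depleted genes below 0 in every bin, and all lines fall with length.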

How the data were processed

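Ribosome-bound and total RNA was sequenced from pools of mediobasal hypothalamus. The authors deposited estimated counts per gene, made with Salmon 0.14.1, and the submitters' processing notes also name STAR, GRCm38.p6 and DESeq2 1.30.0. Their fold changes and adjusted p-values for 2 other comparisons were not used, except that the genes tested had to be listed in one of those tables. After rounding to integers the counts were analysed in R 4.3.3 with edgeR 4.0.16 (quasi-likelihood F test, TMM scaling, a minimum count of 10 in the expression filter, Benjamini-Hochberg adjustment over all genes tested, threshold 0.05). The fit took the 10 pulldowns with a mean per group. Inputs were left out of it because their biological coefficient of variation was 0.0898, against 0.201 in the pulldowns, and they were fitted and scaled apart. The interaction used the 14 libraries of IRΔTan and HFD controls, and the classes of genes the 6 libraries of NCD controls. Nothing in the labels ties the pools to independent cohorts, so p-values measure the spread between these pools. Library totals of 29469000 to 48674000 counts limit the precision of low genes.

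For a single value the exact two-sided permutation test of 3 against 4 pools cannot give a p under 0.0286, whatever the size of the difference, and it was 0.0286 for Insr. Pulldown and input share a lysate within each pool, which pairs them by design, and their deviations from the group means correlated by 0.0239 to 0.337. Named were the genes the study names, the 12 genes per direction with the largest change (at least 10 CPM in the higher group, called, no overlap), the 4 members with the lowest P in each list, members standing in a count of at most 5, and 6 genes on which NCD controls lay outside both groups. The comparison, the 50 lists and the tests were chosen with earlier results of these data known. Alternatives were DESeq2 1.42.0, other scalings, filters and libraries in the fit, a replicate block, Y-linked genes as a covariate, thinned counts, a length trend removed by an offset, and each pool left out. Each test was tried on simulated counts with known changes. Gene positions and lengths are from the reference annotation of GRCm38, and promoter sequences from RefSeq. A length is the number of bases covered by the exons of a gene, without introns. Some genes are not reported here.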

Additional observations from a re-analysis of the deposited data

Results flagged for a closer look

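In the 4 HFD pulldowns 1 pool stood far from the other 3 for 6 of 238 values tested by Dixon's criterion, and chance gives such a pool in about 1 of 20 groups. HFD pool 2 was the highest for the spectrins Sptan1 (1320 CPM) and Sptb (107 CPM), for Ppargc1b (12.8 CPM), a coactivator of mitochondrial genes, and for Gh (0.644 CPM), which encodes growth hormone. HFD pool 1 was the highest for C1qb (17.8 CPM), a complement component of microglia, and for Acta2 (123 CPM), the actin of smooth muscle.

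The difference between IRΔTan and HFD differed between pulldown and input at 5342 genes by the interaction test. Among them were 76 ribosomal protein genes. Hsp90aa1, Hsph1 and Dnaja1 were lower in the pulldown of IRΔTan but higher in its input, so that the pulldown difference minus the input difference was -0.88, -0.58 and -0.56 on the log2 scale. The gene annotated to ribosomal RNA was not among the genes tested, but its counts are part of the library totals that scale the levels. It took up to 18.9% of the counts of an IRΔTan pulldown and at most 8.91% of those of an HFD pulldown.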

How the results depend on the processing

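The count of 4863 genes lay within 1.5 times under every other tool, scaling, filter and set of libraries tried, from 3801 with pool number as a replicate block to 6875 with all 20 libraries in the fit. DESeq2 called 5368, and 705 calls remained with a log2 fold change of at least 1. Leaving out 1 pool gave 2965 (IRΔTan pool 1) to 5386 (HFD pool 1) calls in the pulldown, 2781 to 3871 in the input, 3766 to 5720 for the interaction and 3798 to 4268 enriched genes in NCD controls. The input gave 1067 calls with all 20 libraries in the fit, where the larger spread of the pulldowns enters it. Pool numbers do not pair IRΔTan with HFD, since same-numbered pulldowns correlated by 0.076, -0.235 and -0.141. The replicate block with pulldown and input of a pool paired gave 5543 calls for the interaction and 4687 enriched genes. The median of mural and fibroblast markers was 0.701 among genes of at least 5 CPM, against -0.50, with fewer of the 10 genes tested. Atr, a DNA damage kinase, was at 0.22 (adjusted P = 0.266) with the length trend removed, against -0.40, and the cause was not tested. Of 243 named genes 207 were called, and 153 of those in each of 22 alternatives. Apart from those the study names, these genes were chosen by a low P or a call in this comparison. The share called was thus largely set by the choice and cannot be read beside the 35.8% of all genes tested. The exact p of Insr, 0.0286, was the same with library totals. Few pools and pools of several mice limit what differences of low genes can be seen.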

Other observations

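Several lists held members called in both directions. Of the lysosomal genes, 2 rose, Atp6v0e, a small subunit of the proton pump, by 1.14 and Tfeb, the transcription factor of lysosomal genes, by 0.66, while the pump subunits Atp6v0a1 and Atp6v1h were at -1.04 and -0.94. Of fatty acid genes Acsl1 and Acsl4, which activate long-chain fatty acids, Hadhb, of beta-oxidation, and Oxct1, which uses ketone bodies, fell by 0.63, 0.92, 0.67 and 0.65 on the log2 scale. Calcium store genes that fell included the release channels Ryr2 and Itpr1 (-1.80 and -0.94) and the pump Atp2a2 (-0.94), and Orai3, a channel of the plasma membrane, rose by 0.77. Of matrix genes the proteoglycan Bcan, the matricellular protein Sparcl1 and the laminin chain Lamb1 were at -0.71, -1.04 and -0.96, and Col23a1, a transmembrane collagen, at 0.80. Among DNA damage kinases Prkdc was at -1.06 (edgeR adjusted P = 0.0019) in the pulldown and 0.36 in the input.

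The largest fitted changes of all genes tested were in low genes that stood at or near 0 in HFD pools, and these were chosen after their values were seen. Mup14, of the major urinary proteins that the liver secretes, was at 1.89, 0.796 and 0.691 CPM in IRΔTan pools, at 0 in all 4 HFD pools and at 1.82, 0.519 and 0.0904 CPM in NCD pools. Its family is a set of near-identical copies that can share reads, so the level of a single member is uncertain.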
